A study of Mus musculus with 7 samples.

Results

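The loci of 10 transcription factor genes were examined, namely *Runx1*, *Runx2*, *Runx3*, *Tead1*, *Tead2*, *Tead3*, *Tead4*, *Cebpa*, *Cebpb* and *Cebpd*. A called ATAC-seq peak was assigned to a locus when it lay within 20 kb of the gene body in GENCODE M21 annotation of mm10, and touching or overlapping peaks of all libraries were joined into regions. This gave 122 regions at the 10 loci, of 104346 regions in the genome. The 10 genes are among 21938 protein-coding genes.

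ATAC-seq, in which the Tn5 transposase cuts accessible DNA, was performed in 7 libraries. They cover the reprogramming of Mouse Embryonic Fibroblasts (MEFs) towards pluripotency and a stem cell line. The MEFs carry 2 alleles, a cassette of *Pou5f1*, *Klf4*, *Sox2* and *Myc* (OKSM) under tetO control in *Col1a1* (Col1a1tm1 of Hoch, from a B6;129S4 strain) and the transactivator that doxycycline switches on (Gt(ROSA)26Sortm1(rtTA*M2)Jae, from a B6.Cg strain), so that the uninduced MEFs of day 0 carry both too. The other MEF libraries received doxycycline (2 µg/mL) and were collected after 1, 2, 3, 6 and 9 days, and untreated Embryonic Stem Cells (ESCs) of the Bruce-4 line, for which the genotype label repeats that of the MEFs, completed the series. The ESCs are not a time-point of the MEF series, so a difference between day 9 and ESCs cannot be told apart from one between cell lines. Each time-point, like the ESCs, has 1 bulk library, so no difference between libraries could be set against the spread between replicates. Fewer cells with an open region cannot be told apart from less opening per cell.

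The labels were compared with marker genes by peaks within 1000 bp of a transcription start site (TSS). Over all protein-coding genes, 59.7% had such a peak at day 0 and 50.3% in ESCs, and the marker lists below are short. Of 10 fibroblast markers, 9 had such a peak at day 0 and 3 in ESCs (*Twist1*, *Snai2* and *Fn1*). Of 10 ESC markers, 5 had one at day 0 and 3 in ESCs (*Pou5f1*, *Esrrb* and *Zfp42*), while the promoters of *Nanog*, *Dppa4* and *Lin28a* had a peak in no library. Within 20 kb of the gene body, *Dppa4* had 2 regions and *Zfp42* 1 in ESCs and none in any other library, *Pou5f1* had 4 in ESCs and 2 at day 0, and *Nanog* 1 and 3. For the other ESC markers, *Esrrb* had 5 in ESCs and 4 at day 0, *Tfcp2l1* 4 and 4, and *Tdgf1* 1 and 4. *Lin28a* had 1 in ESCs and 2 at day 0, *Sox2* 0 and 1, and *Utf1* 0 and 3. Promoter peaks of several defining ESC markers were thus absent from the ESC library, and the 20 kb windows of *Sox2* and *Utf1* held no peak there. Those of *Dppa4* and *Zfp42* had peaks there alone. Promoter peaks of other cell types were also found at day 0, at 4 of 5 haematopoietic markers (all but *Ptprc*) and 4 of 4 endothelial markers, against 1 of 5 and 1 of 4 in ESCs. Epithelial markers had 0 of 4 at day 0 and 1 of 4 in ESCs (*Cdh1*), and trophoblast markers 1 of 3 (*Eomes*) and 0 of 3. Their part in the results below was not tested.

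RUNX proteins bind DNA together with the partner CBFβ. *Runx1* is known for blood formation, *Runx2* for bone formation and the mesenchymal lineage, and *Runx3* for T cells and sensory neurons, and each gene is transcribed from a distal and a proximal promoter. TEAD proteins bind DNA but need the co-activators YAP and TAZ, which the Hippo kinase pathway keeps out of the nucleus, and *Tead4* is also needed for the first lineage of the embryo, the trophectoderm. C/EBP proteins are basic leucine zipper factors of fat, liver and myeloid cells, and *Cebpa*, *Cebpb* and *Cebpd* are short genes whose coding sequence has no introns. Factors of the AP-1, RUNX, TEAD and C/EBP families are known to occupy fibroblast enhancers, whereas OCT4, SOX2 and KLF4 are the factors that the cassette supplies.

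The distal promoters of the *Runx* genes are shown first, because the 3 genes differed in accessibility there. The 300 bases around each RefSeq start site (GRCm38.p6, the mm10 assembly) are given along the direction of transcription, with matches to 7 motifs in capitals, on either strand. The motifs were AP-1 (TGANTCA), RUNX (TGTGGT), TEAD (CATTCC), CEBP (TTGCNNAA), KLF (CCACCC), SOX (CATTGT) and OCT (ATGCAAAT), and CEBP and OCT matches can overlap.
Runx1 distal promoter, chr16:92826025-92826324, minus strand: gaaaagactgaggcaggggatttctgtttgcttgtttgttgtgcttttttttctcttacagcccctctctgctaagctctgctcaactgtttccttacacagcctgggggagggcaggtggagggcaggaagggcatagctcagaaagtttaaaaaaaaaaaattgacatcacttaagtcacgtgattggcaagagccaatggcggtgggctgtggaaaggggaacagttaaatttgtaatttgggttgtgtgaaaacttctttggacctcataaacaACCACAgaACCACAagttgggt
Runx2 distal promoter, chr17:44814578-44814877, minus strand: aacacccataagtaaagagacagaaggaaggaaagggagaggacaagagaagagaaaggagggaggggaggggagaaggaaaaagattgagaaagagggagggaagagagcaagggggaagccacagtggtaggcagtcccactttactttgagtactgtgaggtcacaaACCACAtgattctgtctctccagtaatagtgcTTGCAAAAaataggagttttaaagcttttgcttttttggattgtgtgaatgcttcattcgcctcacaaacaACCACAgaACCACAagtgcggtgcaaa
Runx3 distal promoter, chr4:135120395-135120694, plus strand: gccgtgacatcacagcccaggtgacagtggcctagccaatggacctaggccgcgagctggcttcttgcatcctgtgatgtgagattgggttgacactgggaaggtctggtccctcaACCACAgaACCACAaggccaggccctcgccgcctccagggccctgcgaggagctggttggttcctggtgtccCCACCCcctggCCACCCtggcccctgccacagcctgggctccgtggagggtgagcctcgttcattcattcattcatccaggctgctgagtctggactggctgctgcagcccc
Runx1 proximal promoter, chr16:92697280-92697579, minus strand: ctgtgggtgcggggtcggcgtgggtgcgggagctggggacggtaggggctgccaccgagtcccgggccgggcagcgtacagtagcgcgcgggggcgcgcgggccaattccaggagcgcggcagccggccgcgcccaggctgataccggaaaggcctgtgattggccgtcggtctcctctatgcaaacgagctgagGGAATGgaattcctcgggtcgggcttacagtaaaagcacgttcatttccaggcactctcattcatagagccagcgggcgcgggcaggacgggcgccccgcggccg
The 3 distal promoters share the letters ACCACAGAACCACA, a pair of RUNX motifs of the same orientation (ACCACANNACCACA on either strand). The pair begins 28 bp downstream of the start site in *Runx1*, 23 bp downstream in *Runx2* and 134 bp upstream in *Runx3*. Of 32851 RefSeq promoter windows of this length, 7 (0.0213%) hold the pair, while a single RUNX motif stands in 16.8%. The 3 distal promoters, whose shared letters gave the pair, are among these 7, so the count is not independent of them. The distal promoter of *Runx1* holds 2 CpG dinucleotides at 45.0% GC and that of *Runx2* 2 at 45.3%, whereas the proximal promoter of *Runx1* holds 35 at 69.0%. The *Runx3* distal promoter holds 8 CpG at 63.7% GC.

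*Runx1* (ENSMUSG00000022952.17, chr16:92601466-92826149, minus strand) had promoters that differed in accessibility over time. The distal promoter, whose start sites lie between 92825778 and 92826149, had a called peak of 482 bp (chr16:92825746-92826227) at day 0 and in no other library. The nearest peak to these start sites lay 2066 bp away at day 1, 46823 bp at day 2, 2112 bp at day 3, 46837 bp at day 6, 2132 bp at day 9 and 47074 bp in ESCs. The shared pair of RUNX motifs was inside the day 0 peak. Where a library had 2 peaks in a region, as in 17 pairs of region and library at the 10 loci, the width given is their sum and is marked as such. At the proximal promoter, which lies 129 kb downstream inside the gene, the region chr16:92696577-92697740 had a peak in all 7 libraries, of 1125 bp at day 0, 538 bp at day 1, 428 bp at day 2 (2 peaks, of 200 and 228 bp), 719 bp at day 3, 618 bp at day 6, 633 bp at day 9 and 519 bp in ESCs. Day 0 was thus the only library with a peak at both promoters, and the one in which the proximal peak was widest.

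*Runx2* (ENSMUSG00000039153.16, chr17:44495987-44814797, minus strand) kept its distal promoter open for longer. The region chr17:44814525-44815362 had a peak of 730 bp at day 0, 692 bp at day 1, 411 bp at day 2 (2 peaks, of 211 and 200 bp), 585 bp at day 3, 691 bp at day 6 and 200 bp at day 9, and none in ESCs, where the nearest peak lay 36888 bp away. The 200 bp of day 9 is the shortest width that the peak lists hold. The pair of RUNX motifs was fully inside the called peak at day 0 and at day 6 but not at days 1, 2, 3 and 9. The second promoter region, chr17:44735831-44736608, had a peak of 392 bp at day 0, 579 bp at day 1, 719 bp at day 3 (2 peaks, of 475 and 244 bp), 458 bp at day 6, 327 bp at day 9 and 200 bp in ESCs, and none at day 2. The *Runx2* gene therefore had peaks at both promoters in MEFs and a single one, of the shortest width, in ESCs.

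*Runx3* (ENSMUSG00000070691.10, chr4:135120652-135177990, plus strand) lacked a promoter peak in 6 of the 7 libraries. Its distal promoter had a peak in no library, and its proximal promoter had 1 of 218 bp at day 9 alone (chr4:135152349-135152566). Between these promoters, an intronic region (chr4:135146622-135147277) with RUNX and TEAD motifs had a peak of 644 bp at day 0 and 528 bp at day 1 (2 peaks, of 266 and 262 bp) and none afterwards. The locus held 4 peaks at day 0, 2 at day 1, 0 at days 2, 3 and 6, 1 at day 9 and 2 in ESCs, and the ESC peaks lay in other regions than those of day 0.

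**Figure D1:**
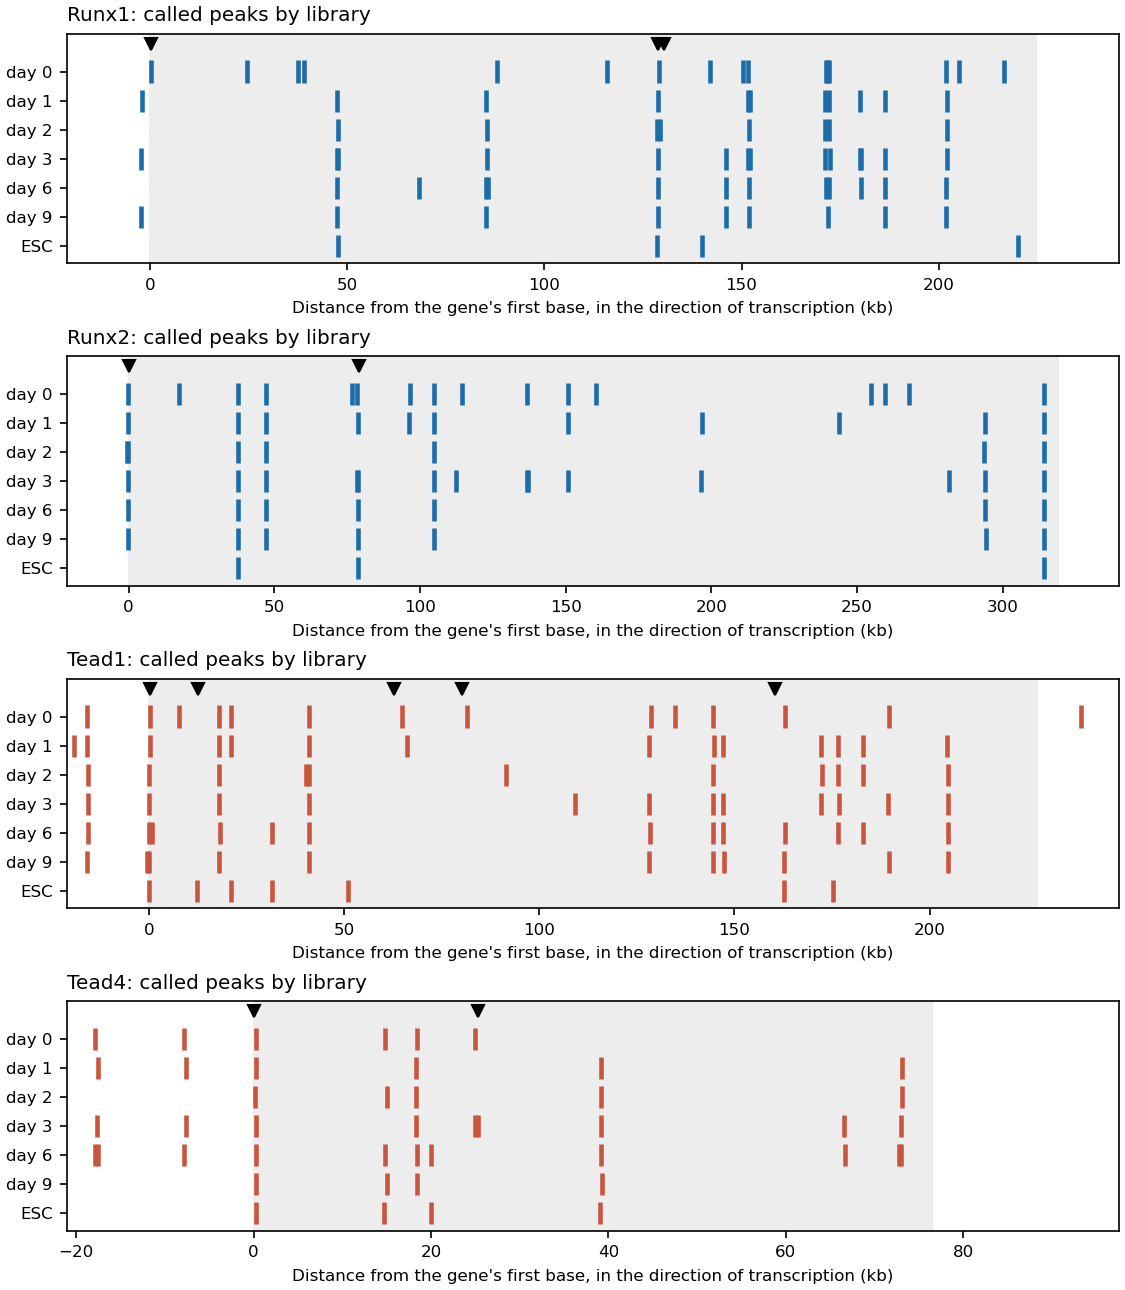
Called peaks (vertical ticks at peak centres, not drawn to their width) in the 7 libraries at *Runx1*, *Runx2*, *Tead1* and *Tead4*, against the distance from the first base of the gene along transcription in kb, with the gene body in grey and annotated promoters as triangles. The first promoter of *Runx1* has a tick at day 0 alone and that of *Runx2* up to day 9, whereas the first promoters of *Tead1* and *Tead4* have one in all 7 libraries.

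The promoters of *Tead1*, *Tead3* and *Tead4* were open throughout. At the main promoter of *Tead1* (ENSMUSG00000055320.17, chr7:112679318-112906807, plus strand) the called peaks covered 1014 bp at day 0, 734 bp at day 1, 1064 bp at day 2, 698 bp at day 3, 1110 bp at day 6 (2 peaks, of 907 and 203 bp), 831 bp at day 9 (2 peaks, of 296 and 535 bp) and 797 bp in ESCs. *Tead3* (ENSMUSG00000002249.21, chr17:28331671-28350817, minus strand) had 918 bp at day 0, 282 bp at day 1, 259 bp at day 2, 772 bp at day 3 (2 peaks, of 200 and 572 bp), 620 bp at day 6, 531 bp at day 9 and 327 bp in ESCs. *Tead4* (ENSMUSG00000030353.15, chr6:128224288-128300823, minus strand) had 742 bp at day 0, 605 bp at day 1, 407 bp at day 2, 642 bp at day 3, 683 bp at day 6, 572 bp at day 9 and 540 bp in ESCs. The widths did not move in one direction over the time course in any of these genes. A start site inside *Tead1* (112691698) had a peak of 736 bp in ESCs (chr7:112691108-112691843) and in no other library, with the nearest peaks of the other libraries 4613 to 5503 bp away. An internal start site of *Tead4* (128275577) had peaks within 1000 bp at days 0 and 3 alone, in a region of 200 bp (chr6:128275415-128275614, day 3) and in another (chr6:128275759-128276002) with 200 bp at day 0 and 223 bp at day 3.

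*Tead2* (ENSMUSG00000030796.17, chr7:45215753-45233644, plus strand) was the *Tead* gene without a promoter peak in ESCs. It had a pair of promoter regions. The first (chr7:45215640-45216061) had 233 bp at day 0, 224 bp at day 3 and 214 bp at day 6, and no peak at days 1, 2 and 9. The second (chr7:45216374-45216840) had 233 bp at day 0, 225 bp at day 1, 343 bp at day 2, 352 bp at day 6 and 394 bp at day 9, and no peak at day 3. In ESCs the nearest peak to the start sites lay 3522 bp away, in a region of 325 bp at a TSS of *Dkkl1*. The promoter peaks of *Tead2* were thus at most 394 bp wide, narrower than most of those at the other *Tead* promoters.

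The *Cebp* promoters had a peak in all 7 libraries. *Cebpa* (ENSMUSG00000034957.10, chr7:35119293-35121928, plus strand), a gene of fat and myeloid differentiation, had peaks of 1112 bp at day 0, 851 bp at day 1, 834 bp at day 2, 1133 bp at day 3, 657 bp at day 6, 646 bp at day 9 and 677 bp in ESCs (region chr7:35118365-35119554). *Cebpb* (ENSMUSG00000056501.3, chr2:167688915-167690418, plus strand), which responds to inflammatory signals, had 611 bp at day 0, 547 bp at day 1, 562 bp at day 2, 445 bp at day 3, 636 bp at day 6, 389 bp at day 9 and 235 bp in ESCs (region chr2:167688677-167689374). *Cebpd* (ENSMUSG00000071637.5, chr16:15887286-15891031, plus strand) had 916 bp at day 0, 805 bp at day 1, 674 bp at day 2, 792 bp at day 3, 786 bp at day 6, 692 bp at day 9 and 760 bp in ESCs as the sum of 2 peaks, of 469 and 291 bp (region chr16:15886747-15887814). The *Cebpb* peak was narrowest in ESCs and the *Cebpa* peak at day 9, whereas the called width at *Cebpd* was smallest at day 2 as a sum and its narrowest single peak was that of 291 bp in ESCs.

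Over the 10 genes, 9 had a promoter peak at days 0, 1, 2, 3 and 6, 10 at day 9 and 8 in ESCs. Over all protein-coding genes the share was 59.7% at day 0, 55.8% at day 1, 51.6% at day 2, 56.4% at day 3, 57.4% at day 6, 53.4% at day 9 and 50.3% in ESCs.

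**Figure D2:**
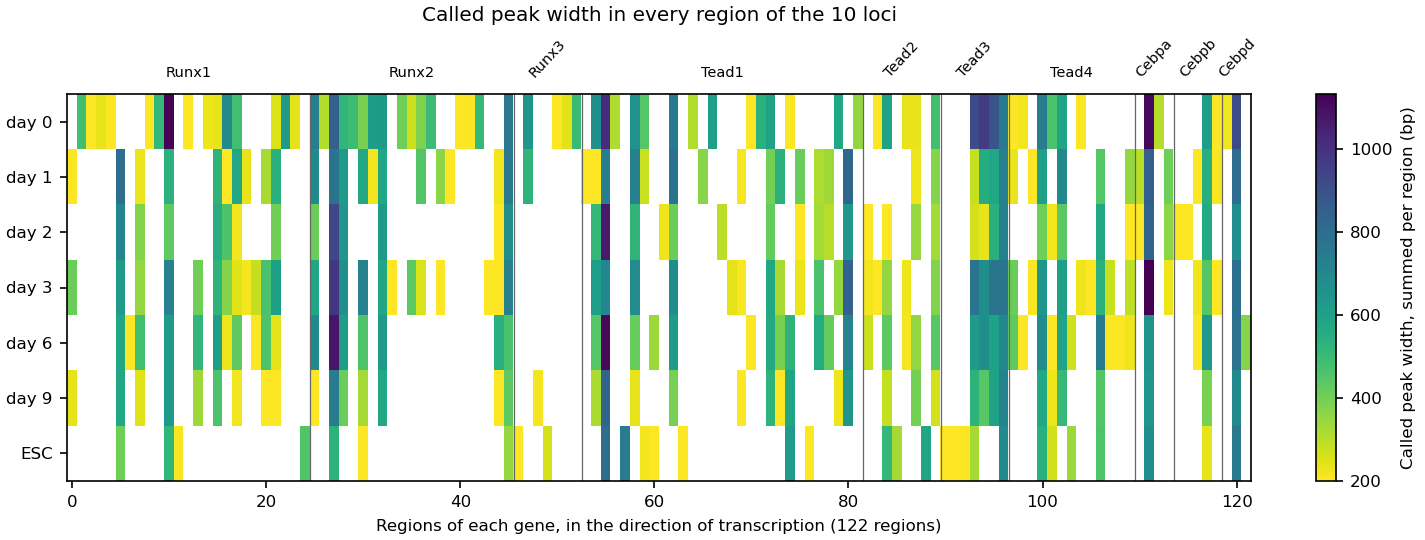
Called peak width in bp, summed where a library has 2 peaks in a region (colour; white means no peak) in the 7 libraries (rows) for the 122 regions (columns) of the 10 genes, ordered along transcription within each gene. The dark columns that run through all rows are mostly promoters, and many day 0 columns of *Runx1*, *Runx2* and *Runx3* have no peak in any other row.

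The families differed in how many peaks remained near them. The *Runx* loci held 36 peaks at day 0, 24 at day 1, 15 at day 2, 28 at day 3, 19 at day 6, 17 at day 9 and 9 in ESCs. The *Tead* loci held 30 at day 0, 26 at day 1, 24 at day 2, 32 at day 3, 33 at day 6, 22 at day 9 and 19 in ESCs. The *Cebp* loci held 6, 7, 7, 6, 5, 3 and 4 in the same order. The total over the 10 loci was 72 at day 0 and 32 in ESCs, but the libraries also differ in their number of called peaks, from 61241 at day 0 to 27074 in ESCs. When each library was limited to its 27074 widest peaks, the total was 35 at day 0, 36 at days 1, 2, 3 and 9, 38 at day 6 and 32 in ESCs, so that the fall in the total was no longer seen. In these limited lists the *Runx* loci held 16, 13, 12, 14, 13, 13 and 9 peaks and the *Tead* loci 16, 18, 20, 19, 21, 20 and 19, from day 0 to ESCs. At the *Runx* loci the count in lists of equal size was thus lower in ESCs than at day 0 by a smaller margin than in the full lists and was 12 to 14 on the doxycycline days, and at the *Tead* loci it was not lower in ESCs. These counts come from single libraries and carry no replicate error.

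Scaled to the length of the windows, the median over the 10 genes was 4.98 peaks per 100 kb at day 0, 4.65 at day 1, 4.20 at day 2, 4.99 at day 3, 4.70 at day 6, 2.90 at day 9 and 2.51 in ESCs. The median over protein-coding genes was 3.94, 2.98, 2.21, 3.23, 3.02, 2.22 and 1.95 in the same order. *Tead2* was the densest locus at day 0 with 10.4 peaks per 100 kb, and its window also holds *Ccdc155*, *Cd37*, *Dkkl1* and *Slc6a16*. *Tead3* had the highest density in ESCs, 8.45 peaks per 100 kb, and its window also holds *Fance*, *Rpl10a* and *Tulp1*. Of the 122 regions, 8 were within 1000 bp of a TSS of another protein-coding gene, 7 of them at *Tead* loci and 1 (*Supt3*) at *Runx2*.

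The fate of the 70 regions that were open at day 0 was followed next. Of these, 37 (52.9%) had no peak at day 1, compared with 55.3% of all 58856 day 0 regions of the genome. The share without a peak was 60.0% at day 2 (all regions 65.2%), 50.0% at day 3 (54.7%), 51.4% at day 6 (56.4%), 57.1% at day 9 (65.3%) and 78.6% in ESCs (78.6%). As a set, the 10 loci were thus near the rest of the genome in each library. The point values of the families lay on either side of it. Of the 35 *Runx* regions, 60.0% lacked a peak at day 1, 71.4% at day 2, 62.9% at day 3, 68.6% at day 6, 71.4% at day 9 and 88.6% in ESCs (31 of 35). Of the 29 *Tead* regions, 48.3% lacked a peak at day 1, 48.3% at day 2, 37.9% at day 3, 31.0% at day 6, 41.4% at day 9 and 72.4% in ESCs (21 of 29). On day 6 the *Tead* share (9 of 29, exact 95% interval 15.3% to 50.8%) lay under the share of all regions, and the *Runx* share (24 of 35, 50.7% to 83.1%) had an interval that includes it. The *Tead* interval at day 9 (23.5% to 61.1%) also lay under the share of all regions. At days 1, 2 and 3 and in ESCs the *Tead* interval included that share, and the *Runx* interval included it in each later library. The 6 *Cebp* regions are too few to place, with 2 or 3 of them lacking a peak in each later library.

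**Figure D3:**
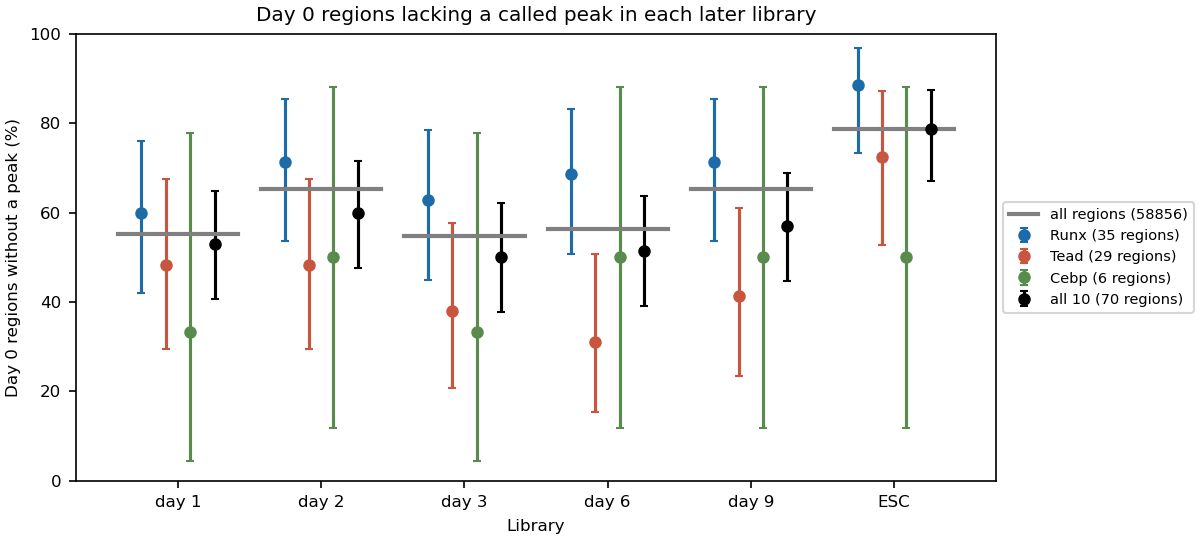
Share of day 0 regions (%) without a called peak in each later library, for the *Runx*, *Tead* and *Cebp* loci and all 10 (points with exact 95% intervals, counting error only) and for all regions of the genome (grey lines). The *Runx* points lie above the grey lines and the *Tead* points below them in all 6 libraries.

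The families also differed in the last library with a peak. Of the 35 *Runx* regions of day 0, 20 had a peak in no later library (57.1%, exact 95% interval 39.4% to 73.7%), against 5 of the 29 *Tead* regions (17.2%, 5.85% to 35.8%) and 42.4% of all day 0 regions. By position, the share over all day 0 regions was 12.0% near a TSS and 52.6% away from one. Over all regions, with a day 0 peak or not, 7 of 57 at the *Tead* loci and 1 of 53 at the *Runx* loci were promoters of other genes. Of these 8 regions, 5 had a day 0 peak. The genes' own promoters are not in this count. The part of position in the family difference was not tested. Of the 20 *Runx* regions, 10 belonged to *Runx1*, 7 to *Runx2* and 3 to *Runx3*, and the 5 *Tead* regions all belonged to *Tead1*. In lists limited to the 27074 widest peaks the shares were 56.2% (9 of 16) for *Runx* and 12.5% (2 of 16) for *Tead*. With peaks of at least 300 bp the *Tead* share was 35.0% (7 of 20) and the *Runx* share 55.0% (11 of 20), so the gap between the families was smaller there. Over the 10 loci, the last peak fell at day 0 for 27 of 70 regions (38.6%), at day 1 for 2 (2.86%, all regions 3.58%), at day 2 for 0 (all regions 1.03%), at day 3 for 5 (7.14%, all regions 5.93%), at day 6 for 5 (7.14%, all regions 10.0%), at day 9 for 16 (22.9%, all regions 15.7%) and in ESCs for 15 (21.4%, all regions 21.4%). A last peak at day 9 was found for 10 of the 29 *Tead* regions (34.5%) and 6 of the 35 *Runx* regions (17.1%).

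Regions without a day 0 peak were followed in the same way. Among the regions of each library at the 10 loci, 40.0% at day 1 lacked a day 0 peak (all regions 38.6%), 36.4% at day 2 (33.6%), 41.7% at day 3 (40.9%), 37.0% at day 6 (38.9%), 26.8% at day 9 (34.0%) and 51.6% in ESCs (51.7%). Of the 52 regions without a day 0 peak, 22 were first seen at day 1 (42.3%, all regions 36.3%), 5 at day 2 (9.62%, all regions 7.75%), 7 at day 3 (13.5%, all regions 17.2%), 5 at day 6 (9.62%, all regions 11.9%), 1 at day 9 (1.92%, all regions 4.47%) and 12 in ESCs (23.1%, all regions 22.4%). The region first seen at day 9 was the proximal promoter of *Runx3*. Of the 12 first seen in ESCs, 8 were at *Tead* loci and 4 at *Runx* loci, while the *Cebp* loci gained none there.

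**Figure D4:**
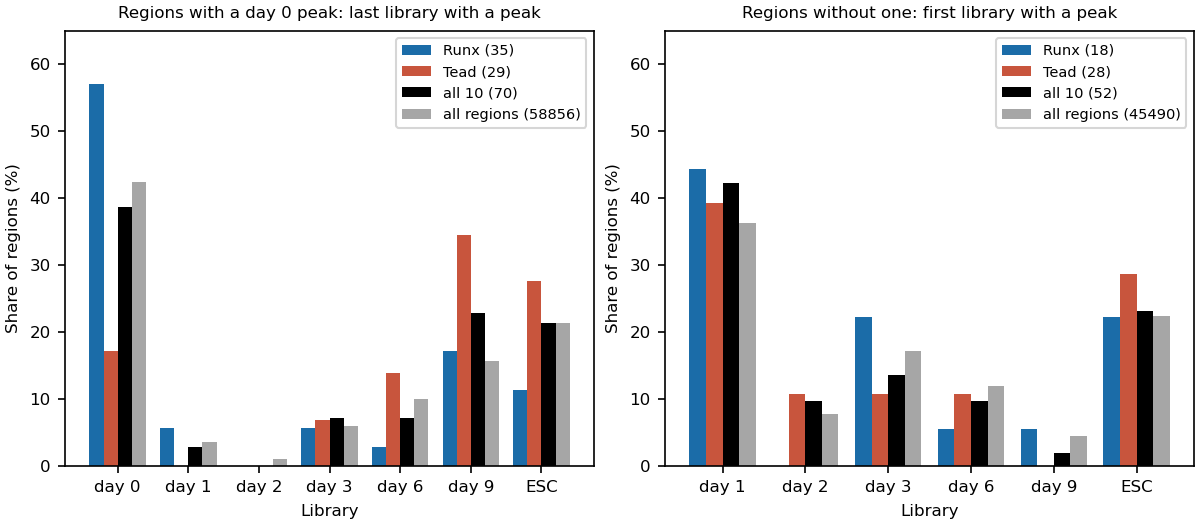
Left, the last library with a peak for regions open at day 0, and right, the first library with a peak for regions that were not, as shares of regions (%) for the *Runx* and *Tead* loci, all 10 loci and all regions of the genome, with the number of regions in brackets. The *Runx* bar is highest at day 0 at 57.1%, whereas the *Tead* bar is highest at day 9 at 34.5%.

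By the whole time course, 10 of the 122 regions were open in all 7 libraries (8.20%, all regions 9.75%). A further 14 had a peak at day 0 and on all 5 doxycycline days but none in ESCs (11.5%, exact 95% interval 6.42% to 18.5%, all regions 4.99%). Of these 14, 6 were at *Runx* loci (3 each at *Runx1* and *Runx2*) and 8 at *Tead* loci (4 at *Tead1*, 2 at *Tead3* and 1 each at *Tead2* and *Tead4*). The region at *Tead2* is a promoter of the neighbour *Cd37*, and 1 of the 2 at *Tead3* is a promoter of the neighbour *Rpl10a*. There were 36 regions with a peak neither at day 0 nor in ESCs (29.5%, all regions 30.7%), 16 with a peak in ESCs but not at day 0 (13.1%, all regions 12.9%), and 54 with a peak in a single library (44.3%, all regions 50.7%). Gaps in the series were common to the genome. Of 46 regions open at days 1 and 3, 12 (26.1%) had no peak at day 2 (all regions 24.4%), and of 18 open at day 6 and in ESCs, 2 (11.1%) had none at day 9 (all regions 10.8%).

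Regions open in all libraries lay mostly at promoters, at the 10 loci as over the genome. Genome-wide, 8325 such regions lay near a TSS and 1832 away from one. Near a TSS, 9 of 24 regions of the 10 loci were open in all libraries (37.5%, all regions 43.6%). Away from one it was 1 of 98 (1.02%, all regions 2.15%). Of the 10 regions open in all libraries, 7 were promoters of the genes themselves and 2 promoters of the neighbours *Supt3* and *Fance*. The remaining one was intronic in *Runx2* (chr17:44500169-44500967), 314 kb downstream of the gene start, with 764 bp at day 0, 757 bp at day 1, 673 bp at day 2, 728 bp at day 3, 468 bp at day 6, 433 bp at day 9 and 348 bp in ESCs. This intronic region holds AP-1 and TEAD motifs, and its peak was widest at day 0 and narrowest in ESCs. The loss of day 0 regions by position was near that of the genome. Away from any TSS, 48 of 52 day 0 regions (92.3%) had no peak in ESCs, against 93.0% of such regions genome-wide, and near a TSS it was 7 of 18 (38.9%), against 35.9%.

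Regions that led the patterns are shown next, chosen as the widest in summed peak width within a family, as examples of each pattern. The central 200 bp are given on the plus strand, with motif matches in capitals.
Runx1 intron, peak at day 0 alone, chr16:92620816-92621015: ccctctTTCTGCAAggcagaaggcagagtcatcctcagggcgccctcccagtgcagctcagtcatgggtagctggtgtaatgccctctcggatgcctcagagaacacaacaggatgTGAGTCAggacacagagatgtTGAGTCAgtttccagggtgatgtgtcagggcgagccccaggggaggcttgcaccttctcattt
Runx2 intron, day 0 to day 9 but not ESCs, chr17:44709932-44710131: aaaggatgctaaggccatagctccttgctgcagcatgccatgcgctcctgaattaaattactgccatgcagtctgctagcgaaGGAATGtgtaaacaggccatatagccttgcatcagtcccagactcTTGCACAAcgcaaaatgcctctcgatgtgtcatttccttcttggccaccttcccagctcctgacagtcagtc
Runx1 intron, the 5 doxycycline days alone, chr16:92740586-92740785: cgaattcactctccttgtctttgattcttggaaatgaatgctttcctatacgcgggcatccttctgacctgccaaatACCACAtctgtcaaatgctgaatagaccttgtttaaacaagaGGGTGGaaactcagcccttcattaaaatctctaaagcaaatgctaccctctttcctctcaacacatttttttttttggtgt
Tead1 intron, the 5 doxycycline days alone, chr7:112883824-112884023: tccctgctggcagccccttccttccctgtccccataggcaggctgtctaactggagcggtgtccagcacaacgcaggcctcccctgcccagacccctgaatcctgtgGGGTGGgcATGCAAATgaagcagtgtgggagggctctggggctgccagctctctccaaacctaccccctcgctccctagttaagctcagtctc
Runx1 intron, day 1 to ESCs but not day 0, chr16:92778543-92778742: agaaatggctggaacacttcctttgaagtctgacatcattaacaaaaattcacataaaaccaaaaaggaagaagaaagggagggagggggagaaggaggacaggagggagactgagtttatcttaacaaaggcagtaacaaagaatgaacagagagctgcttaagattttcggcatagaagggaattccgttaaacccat
Tead4 intron, day 1 to ESCs but not day 0, chr6:128261546-128261745: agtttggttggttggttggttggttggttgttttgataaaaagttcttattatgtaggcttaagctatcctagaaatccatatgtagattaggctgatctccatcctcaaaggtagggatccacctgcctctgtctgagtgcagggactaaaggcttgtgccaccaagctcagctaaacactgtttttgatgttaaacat
The *Runx1* region of day 0 holds a CEBP motif and 2 AP-1 motifs, and its peak spanned 621 bp. The *Runx1* region of the doxycycline days holds a RUNX motif and a KLF motif, which lay inside the called peaks of days 2 and 3. Both motifs lay outside the called peaks of days 1, 6 and 9. The *Tead1* region of the doxycycline days holds a KLF motif and an OCT motif. The *Runx1* and *Tead4* regions that opened at day 1 and stayed hold none of the 7 motifs in this window.

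The 27 regions open at day 0 alone had a median width of 307 bp, against 245 bp for all such regions. Besides the *Runx1* region shown above, the widest at the *Tead* loci was in an intron of *Tead1* (chr7:112760553-112761158, 606 bp), without any of the motifs, and at the *Cebp* loci a region downstream of *Cebpa* (chr7:35126996-35127300, 305 bp) with a CEBP motif. The 14 regions that stayed open up to day 9 had a median width of 727 bp (694 bp genome-wide). Among them, the *Runx2* intron with TEAD and CEBP motifs (chr17:44709705-44710358) had 626 bp at day 0, 577 bp at day 1, 617 bp at day 2, 580 bp at day 3, 627 bp at day 6 and 576 bp at day 9, so that its width hardly moved before the ESC library, which had no peak there. The widest of this kind at the *Tead* loci (chr17:28327918-28328806) is a promoter of *Rpl10a*, a ribosomal protein gene beside *Tead3*, and had 889 bp at day 0 and 593 bp at day 9.

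Transient opening was found at all 3 families. A *Tead1* intron (chr7:112883499-112884349, 205 kb downstream of the gene start) had no peak at day 0, 820 bp at day 1, 637 bp at day 2, 838 bp at day 3, 721 bp at day 6 and 648 bp at day 9, and none in ESCs. A *Runx1* intron (chr16:92740379-92740992) had 226 bp at day 1, 378 bp at day 2, 352 bp at day 3, 484 bp at day 6 (2 peaks, of 279 and 205 bp) and 247 bp at day 9. A *Runx2* intron with a RUNX motif (chr17:44520453-44521175) had 219 bp at day 1, 201 bp at day 2, 200 bp at day 3, 541 bp at day 6 and 200 bp at day 9. Its called peaks of days 2, 3 and 9 lay outside the central 200 bp that hold the motif. The day 9 peak overlapped neither that of day 2 nor that of day 3, and the region was joined through the day 6 peak. The *Tead1* peak was the widest of these 3 on each of the 5 days. In all, 15 regions were open on at least 3 doxycycline days and neither at day 0 nor in ESCs (12.3%, exact 95% interval 7.05% to 19.5%, all regions 8.20%), 6 of them at *Tead1*, 4 at *Runx1* and 2 at *Cebp* loci.

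There were 2 of the 122 regions that lacked a peak at day 0 and had one in each of the 6 other libraries (1.64%, exact 95% interval 0.199% to 5.80%, all regions 0.755%). The *Runx1* intron chr16:92778233-92779053, 47.5 kb downstream of the gene start and so between its distal and proximal promoters, had 801 bp at day 1, 708 bp at day 2, 619 bp at day 3 (2 peaks, of 292 and 327 bp), 572 bp at day 6, 572 bp at day 9 and 406 bp in ESCs. The *Tead4* intron chr6:128261274-128262017, 39.2 kb downstream of the gene start, had 446 bp at day 1, 572 bp at day 2, 532 bp at day 3, 744 bp at day 6, 450 bp at day 9 and 457 bp in ESCs. The *Runx1* peak was widest at day 1 and the *Tead4* peak at day 6. At *Runx1*, the distal promoter had its only peak at day 0, the library in which this intronic region had none.

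Motif content was compared between the patterns, in the central 200 bp and beside all regions of the genome with the same pattern. AP-1 motifs stood in 9 of the 14 regions open from day 0 to day 9 (64.3%, exact 95% interval 35.1% to 87.2%), against 26.3% of all such regions, and in 9 of the 27 open at day 0 alone (33.3%, against 21.6%). KLF motifs stood in 9 of the 15 transient regions (60.0%, 32.3% to 83.7%), against 27.7%, and in 3 of the 27 of day 0 alone (11.1%, against 13.0%). OCT motifs stood in 3 of the 15 transient regions (20.0%, against 6.36%), SOX motifs in 4 of them (26.7%, against 19.6%), and neither was found in any of the 27 regions of day 0 alone, where the genome had 0.843% and 9.97%. TEAD motifs stood in 4 of the 10 regions open in all libraries (40.0%, 12.2% to 73.8%, against 8.19%). Of the 16 regions of ESCs without a day 0 peak, 2 held AP-1 (12.5%, genome-wide 5.51%), 4 RUNX (25.0%, 12.7%), 1 TEAD (6.25%, 15.9%), 1 CEBP (6.25%, 8.83%), 4 KLF (25.0%, 24.9%), 2 SOX (12.5%, 14.1%) and 0 OCT motifs (0%, 3.88%), and all 7 intervals include the genome-wide share. In all, 35 pairs of motif and pattern were compared, and the interval left out the genome-wide share in 3 of them, AP-1 from day 0 to day 9, KLF in transient regions and TEAD in regions open in all libraries. With 400 bp searched, none of these 3 was left. AP-1 stood in 64.3% of the regions open from day 0 to day 9 (35.1% to 87.2%, genome-wide 35.9%), KLF in 66.7% of the transient ones (38.4% to 88.2%, genome-wide 43.9%) and TEAD in 40.0% of those open in all libraries (12.2% to 73.8%, genome-wide 15.2%), so that each interval includes the genome-wide share. The 1 pair whose interval left it out at 400 bp was SOX in regions of day 0 alone, in 0 of 27 (upper bound 12.8%, genome-wide 19.5%). The base composition differed between the patterns as well, with a median GC content of 70.8% in the regions open in all libraries (65.5% genome-wide), 52.5% in those open from day 0 to day 9 (51.5%), 49.0% in those of day 0 alone (45.5%), 50.0% in the transient ones (45.5%) and 54.2% in those of ESCs (51.5%).

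**Figure D5:**
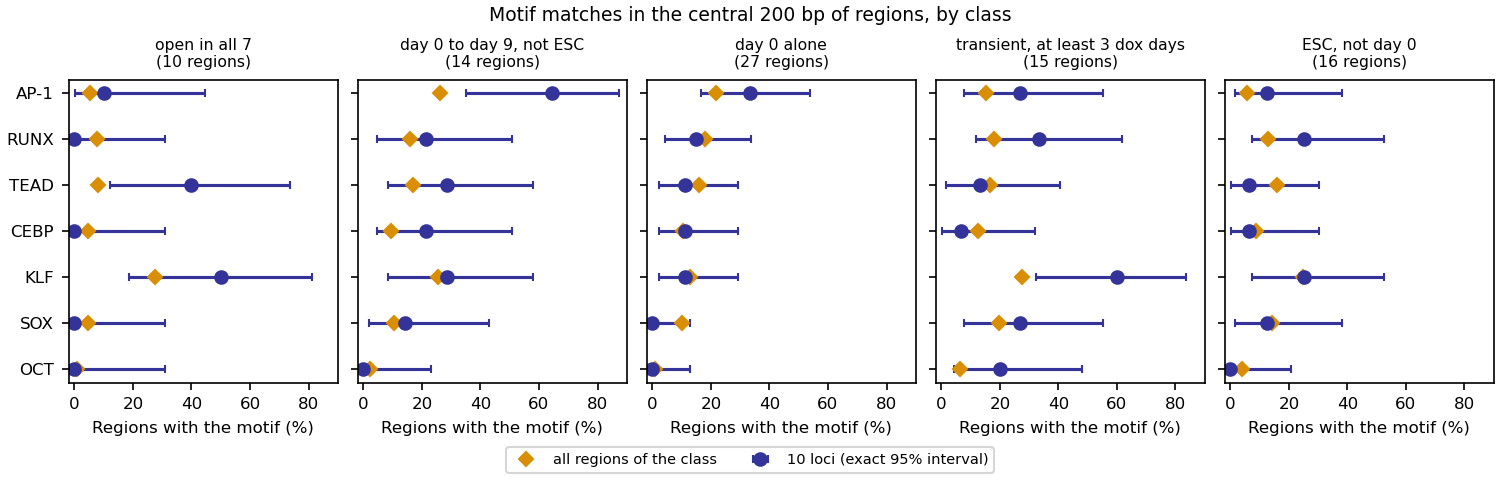
Share of regions (%) with each of 7 motifs in the central 200 bp, in 5 patterns of opening, for the 10 loci (circles with exact 95% intervals, counting error only) and for all regions of the same pattern (diamonds). The circle lies highest above its diamond for AP-1 in regions open from day 0 to day 9 (64.3% and 26.3%) and for KLF in transient regions (60.0% and 27.7%).

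Other genes of the pathways were examined by their promoter peaks. Over all protein-coding genes, the share with a promoter peak ran from 50.3% in ESCs to 59.7% at day 0. Of 4 genes for RUNX partners, *Cbfb* (the shared DNA-binding partner), *Runx1t1* and *Cbfa2t2* had a promoter peak in all 7 libraries, and the co-repressor gene *Cbfa2t3* had one at days 0, 1, 2 and 3 alone. Of 14 genes for TEAD co-factors and the Hippo pathway, 12 had one in all 7 libraries, among them *Yap1*, *Wwtr1* (TAZ), *Lats1* and *Lats2*, the kinases that restrain them, and *Vgll4*, a competing co-factor. *Vgll2* had one at days 0 and 6, and *Vgll1* in no library. Of 7 known targets of YAP and TEAD, 6 had a promoter peak at day 0, 6 at day 1, 3 at day 2, 5 at day 3, 6 at day 6, 5 at day 9 and 5 in ESCs. *Ccn1*, *Ccn2* and *Crim1* lacked one at day 2 alone, *Axl* in ESCs alone, and *Ankrd1* had none in any library. The day 2 library had fewer called peaks (33174) than those of day 1 (45709) and day 3 (48087). In it, 51.6% of all protein-coding genes had a promoter peak, and 24.4% of all regions open at days 1 and 3 had no peak. Of 4 further genes of the *Cebp* family, *Cebpg*, *Cebpz* and *Ddit3* had one in all 7 libraries, and *Cebpe*, a gene of granulocytes, in none.

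The distance of 20 kb set which peaks belong to a locus. The farthest regions inside it were 19271 bp from *Tead1*, open at day 1 alone, and 17766 bp from *Tead3*, open in all 7 libraries. The nearest outside it were 20140 bp from *Cebpa*, open at days 0 and 3, and 20348 bp from *Tead3*, open at days 1 and 3.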

How the data were processed

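ATAC-seq peak lists of 7 libraries were analysed, 1 per time-point of the MEFs and 1 of ESCs. Libraries were grouped by time-point or as ESCs, and no paired or replicate comparison could be made. Before deposit, the authors cut reads to 50 bp (Trimmomatic) and aligned them to mm10 (Bowtie2). Picard served to remove duplicates and to bring all samples to 1 depth, and MACS2 called the peaks of each library separately at a q-value of 0.05. The deposited files list the start and end of each peak without a score, so the read depth and the counts behind a peak are unknown, and peak width is the only size reported here.

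Peaks of all libraries that overlapped by 1 bp or touched were merged into regions, of which BEDTools 2.31.1 gave the same number. In simulated lists, 100% of 1981 planted regions came back with their pattern. Coordinates count from 1. GENCODE M21 gave genes and start sites, and RefSeq (GRCm38.p6, the sequence of mm10) gave bases. A promoter peak lay within 1000 bp of a TSS. Python 3.11.15 with scipy 1.17.1 and pysam 0.24.0 was used. Intervals are exact (Clopper-Pearson) at 95% and cover counting error only, neighbouring regions are not independent, and no p-value was computed, since a single library per time-point allows none between conditions. RefSeq promoter sequences were at hand for *Runx1*, *Runx2*, *Runx3*, *Tead2*, *Tead3*, *Cebpa* and *Cebpb*.

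Regions named are all those within 1000 bp of a TSS of the 10 genes and, for each family and pattern, the one with the largest summed peak width, besides others that a count of few regions singles out, which were chosen after their values were seen. Some items that this rule would name are not reported here. The genes, lists and motifs were chosen with earlier results of these data known. The alternatives were peaks of at least 300 bp, the 27074 widest peaks of each library, windows of 10 kb, 50 kb and the gene body alone, merging within 300 bp, assignment to the nearest TSS, an overlap of 50% of both peaks, 5 libraries without days 2 and 9, promoters of 500 bp, 2000 bp or coding transcripts, and 400 bp for motifs. The values for single families under these alternatives were added after the data were seen.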

Additional observations from a re-analysis of the deposited data

How the results depend on the processing

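Of 257 values of 47 results recomputed under the alternatives, 231 stayed within the exact interval of the reported share, or within 1.5 times the reported count, and 26 moved beyond it. For the *Runx* and *Tead* families, 6 shares were recomputed, namely those without a peak at day 6, without one in ESCs and last seen at day 0. None of these 6 moved beyond its interval, and the other family shares were not recomputed. The intervals are wide, and the *Tead* share last seen at day 0 went from 17.2% to 35.0% with peaks of at least 300 bp, inside an upper bound of 35.8%. With peaks of at least 300 bp, the loci held 44 peaks at day 0, 35 at day 1, 28 at day 2, 36 at day 3, 26 at day 9 and 18 in ESCs, and a window of 50 kb gave 109 at day 0. With the 27074 widest peaks of each library there were 35 at day 0, 36 at day 1 and 36 at day 3, and the share of day 0 regions without a peak was 37.1% at day 2 (all regions 45.5%), 34.3% at day 3 (44.1%), 37.1% at day 9 (46.0%) and 65.7% in ESCs (60.6%), with 34.3% last seen in ESCs (39.4%). With an overlap of 50% of both peaks, the day 0 peaks without a partner were 69.4% at day 1 (all peaks 69.4%), 73.6% at day 2 (77.3%), 63.9% at day 6 (69.3%), 70.8% at day 9 (76.0%) and 90.3% in ESCs (86.0%), and the peaks without a day 0 partner 61.4% at day 1 (59.0%), 58.7% at day 2 (58.0%), 54.4% at day 6 (58.1%), 50.0% at day 9 (55.5%) and 78.1% in ESCs (68.3%). With 400 bp searched, 37.0% of the regions of day 0 alone held a KLF motif (all such regions 24.3%), and the intervals for AP-1, KLF and TEAD that left out the genome-wide share at 200 bp included it. These settings use fewer or narrower matches or a longer window by construction.

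No paired analysis was possible because the design holds a single library for each day and for ESCs. The read depth behind a peak is unknown, so a missing peak means that none was called, not that the region was closed. Widths near 200 bp, the shortest called, are the least certain.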

Other observations

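The *Runx1*, *Runx2* and *Tead1* loci, each with at least 20 regions, were compared with 527 protein-coding genes of at least 20 regions by the share of regions open in each library. The genes nearest to *Runx1* were *Gng12*, *Prkag2* and *Tgfbr3*, with a mean absolute difference over the 7 libraries of 2.29, 2.62 and 2.73 percentage points. *Runx1* had 60.0% of its regions open on day 0 and 16.0% in ESCs, and *Tgfbr3*, a co-receptor of TGF-β, had 57.1% and 17.9%. The genes nearest to *Runx2* were *Myo1d* (4.64 points), *Grk5* (4.76 points) and *Nsmce2* (5.26 points), and *Runx2* had 76.2% open on day 0 and 14.3% in ESCs. The genes nearest to *Tead1* were *1110051M20Rik* (2.96 points), *Bri3* (3.08 points) and *Vps13d* (3.36 points), and *Tead1* had 48.3% open on day 0 and 24.1% in ESCs.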
